A study of Mus musculus with 9 samples.

Results

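The p53 targets and DNA damage response genes described here are 34 genes chosen by symbol: p53 itself (Trp53) with 2 of its regulators, 21 of its target genes, and 10 genes for damage kinases, break-site proteins and end joining. All 34 were found among the 52208 genes of the table, and 32 had enough counts for a test. They were followed in 66cl4, a mouse mammary carcinoma line labelled as triple negative breast cancer, by messenger RNA sequencing of 9 libraries in 3 groups of 3. The comparison is of interest here because Eya proteins, besides acting as transcriptional coactivators, are tyrosine phosphatases with a role in DNA damage signalling.

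The scramble group received a control hairpin with no target together with an empty vector. In the knockdown group the hairpin was directed at Eya3, again with empty vector. The add-back group combined that Eya3 hairpin with IKK2-SE, an active form of the IkB kinase that drives NF-kB signalling. All 3 groups were kept in puromycin (2.5 ug/ml) and selected on mCherry, so none is an unmanipulated line, and no group was treated with a DNA damaging agent as far as the labels say. One Eya3 hairpin and 1 control hairpin were used, named KD2 in the sample titles and KD3 in the table, and the labels do not say whether replicates came from separate transductions or cultures. P-values therefore measure the spread between these libraries, and effects of the hairpin sequence or of the derived line cannot be told apart from those of Eya3. The p53 genotype of the line is not stated in the labels.

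p53 is a transcription factor that is held low by the ubiquitin ligase Mdm2 and is stabilised when the kinases Atm, Atr, Chek1 and Chek2 report damaged DNA or stalled replication. Its targets include the cell cycle inhibitor Cdkn1a (p21), genes that restrain growth, genes that promote death, and repair enzymes. Mdm2 is itself a target and closes a feedback loop, so the targets usually respond as a group to p53 activity, although most of them also answer to other transcription factors.

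The p53 protein binds a response element made of a pair of adjacent 10-base elements. The promoter sequences that follow show where single 10-base elements, not adjacent pairs, stand in 4 members that moved in different directions. They are the 250 bases before the transcription start from RefSeq on GRCm38.p6, written 5′ to 3′ on the gene's strand, with each match to the 10-base p53 consensus element in capitals. Cdkn1a lies on chromosome 17, plus strand (chr17:29090729-29090978), Ccng1 on chromosome 11, minus strand (chr11:40755287-40755536), Mdm2 on chromosome 10, minus strand (chr10:117710759-117711008), and Gadd45a on chromosome 6, minus strand (chr6:67037408-67037657).
Cdkn1a: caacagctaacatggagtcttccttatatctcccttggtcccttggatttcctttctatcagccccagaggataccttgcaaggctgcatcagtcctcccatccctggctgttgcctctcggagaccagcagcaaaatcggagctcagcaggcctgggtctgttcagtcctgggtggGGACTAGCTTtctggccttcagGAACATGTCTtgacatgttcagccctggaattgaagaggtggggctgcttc
Ccng1: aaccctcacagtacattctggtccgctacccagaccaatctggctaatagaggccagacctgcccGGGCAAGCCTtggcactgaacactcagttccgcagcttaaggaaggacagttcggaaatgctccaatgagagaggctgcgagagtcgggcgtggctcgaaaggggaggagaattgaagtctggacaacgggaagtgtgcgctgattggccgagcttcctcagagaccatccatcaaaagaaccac
Mdm2: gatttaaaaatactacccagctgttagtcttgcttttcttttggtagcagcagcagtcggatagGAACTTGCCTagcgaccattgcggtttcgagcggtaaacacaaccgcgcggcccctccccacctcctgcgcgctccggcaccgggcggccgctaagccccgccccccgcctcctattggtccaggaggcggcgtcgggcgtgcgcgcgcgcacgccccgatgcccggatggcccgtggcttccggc
Gadd45a: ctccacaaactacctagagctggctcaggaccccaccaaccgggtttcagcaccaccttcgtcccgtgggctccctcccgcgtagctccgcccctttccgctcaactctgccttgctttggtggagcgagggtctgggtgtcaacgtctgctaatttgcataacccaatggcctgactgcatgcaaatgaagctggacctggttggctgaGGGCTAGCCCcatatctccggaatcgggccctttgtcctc

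Cdkn1a has 2 windows. The upstream one, shown here, held 2 such 10-base elements, starting 73 and 51 bases before its start and not adjacent. The other window (chr17:29093519-29093818) held none. The element of Ccng1 began 185 bases before the start, that of Mdm2 186 bases before it and that of Gadd45a 40 bases before it. Promoter windows of 300 bases were given for 27 of the 34 members, 5 of them with 2 windows. On either strand, a match to the single 10-base p53 element was found in 10 of the 32 windows, against 8.36% of all 32851 windows. The 10 windows belong to 9 members (Aen, Ccng1, Cdkn1a, Ei24, Gadd45a, Mdm2, Polk, Sesn1 and Trp53). An NF-kB consensus site stood in 2 of the 32 windows, those of Atr and Trp53, against 8.46% of all windows. The CHR element TTTGAA, found in many promoters of mitotic genes, was in 3 windows (17.9% of all windows), and the CCAAT box was in 19 (37.4%). An E2F site (TTTCCCGC, TTTCGCGC, TTTGCCGC or TTTGGCGC), an element of replication gene promoters, was in 5 windows (2.26% of all windows), those of Brca2, Cdkn2a, Chek2, Mdc1 and Xrcc6. A match shows only that the letters are present, and distal elements, which serve several p53 targets, lie outside these windows.

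The hairpin target was lower in the cells that carried the hairpin. Eya3 stood at 62.96, 64.1 and 60.9 CPM (counts per 1e+06 counts of the library, scaled by the TMM method) in the scramble libraries, at 25.3, 25.3 and 24.3 in the knockdown libraries and at 29.0, 26.1 and 24.7 in the add-back libraries, a log2 fold change of -1.33 ± 0.06 (SE) between knockdown and scramble (edgeR adjusted p = 5.97e-12). Ikbkb, the mouse gene for IKK2, did not pass the test between add-back and knockdown (44.3 ± 0.435 against 48.6 ± 1.27 CPM, edgeR adjusted p = 0.0809), and whether reads of the introduced IKK2-SE count there is not stated. Nfkbia, a direct NF-kB target, fell from 221 ± 5.76 to 44.3 ± 0.0291 CPM with knockdown and stood at 109.6 ± 0.99 with IKK2-SE. Library totals ran from 63601403 to 81534534 counts. Krt8 was high (628, 1329 and 1073 CPM in the 3 groups), while Epcam and Cdh1, which define epithelium, had at most 0.0760 CPM on average in any group. Of markers of other cells, the lymphocyte list summed to at most 0.279 CPM and the macrophage markers Ptprc and Adgre1 to at most 0.0571 and 0.00942 CPM in any group mean. Summed macrophage markers ran from 51.9 to 55.2 CPM in scramble, 27.3 to 31.1 in knockdown and 38.9 to 41.5 in add-back libraries (3 of 5 tested fell with knockdown), and summed endothelial markers from 4.65 to 5.38, 0.558 to 1.05 and 1.117 to 1.53 (1 of 4 fell and 1 rose). The epithelial sum, nearly all Krt8, ran from 597 to 651, 1257 to 1390 and 1032 to 1110 CPM, the mesenchymal sum from 4009 to 4413, 5873 to 6453 and 4690 to 5219, and the fibroblast sum from 51.8 to 54.3, 46.4 to 51.6 and 54.8 to 58.5. Within these sums single markers moved both ways: against scramble, 2 of 5 tested fibroblast markers rose and 2 fell with knockdown (median log2 fold change 1.67) and 3 rose and 2 fell with add-back (3.12), 3 of 6 epithelial markers rose and 2 fell with knockdown, and 4 of 6 mesenchymal markers rose and 1 fell. The part of these genes in the members' values was not tested.

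Levels within the scramble cells spanned a wide range when divided by exon length. Plk2, a stress-responsive polo-like kinase, was the most abundant member at 216.5 ± 5.87 CPM per kb of exon (SD, n = 3), followed by Trp53 at 77.0 ± 2.14 and Cdkn1a at 40.8 ± 1.65. Cdkn1a and Ccng1 (38.4 ± 0.948) were neighbours in that order with overlapping SD ranges. At the lower end were Btg2 at 2.63 ± 0.0754, Eda2r at 1.67 ± 0.0516 and Trp53inp1 at 1.53 ± 0.103, the last 2 of which overlapped within their SD. In the knockdown cells Cdkn1a, at 75.2 ± 4.23 CPM per kb, stood above Trp53 at 66.7 ± 1.75.

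**Figure D1:**
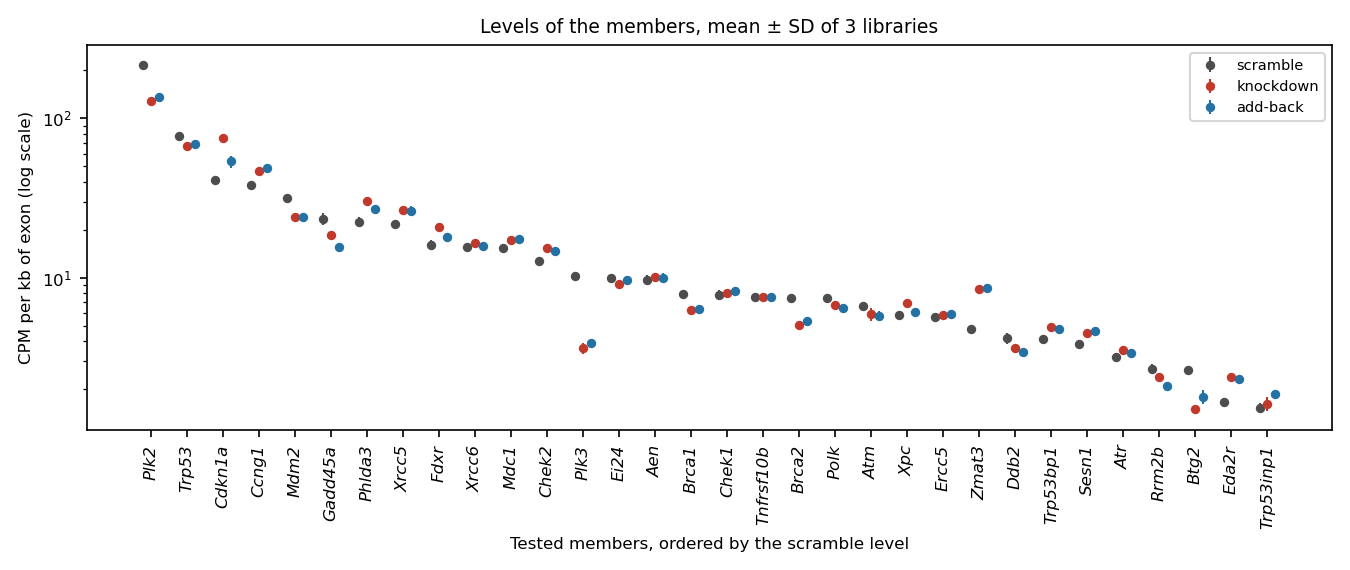
Level of each of the 32 tested members, in TMM-scaled CPM per kb of annotated exon on a log axis, as the mean of 3 libraries with its SD; members are ordered by their scramble level. Plk2 is the highest in every group, and Cdkn1a passes Trp53 only in the knockdown cells.

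Cdkn2a and Perp could not be tested. Cdkn2a encodes p16 and the p19ARF protein that inhibits Mdm2, and the whole locus gave 2, 4 and 6 counts in the scramble libraries and 0 in each of the 6 others. Perp, a p53 target in cell adhesion and death, gave 3 counts in scramble library 2, 2 counts in add-back library 2 and 0 elsewhere. A count of 0 allows a level of up to 0.0368 to 0.0472 CPM, depending on the library (3 counts, counting error only), so both genes were at the limit of detection in all groups.

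With Eya3 knockdown, the members did not move as a group. Of the 32 tested, 26 were called (81.2%, against 57.5% of all 16766 tested genes), 13 of them higher and 13 lower (27.7% and 29.9% of all genes). Cdkn1a and Zmat3 rose the most, by 1.84 and 1.78 times, and Plk3, Btg2 and Plk2 fell the most, to levels 2.85, 1.76 and 1.69 times lower. Trp53 and Mdm2 both fell. Only these 5 members changed by at least 1.5-fold, against 24.5% of all genes, and only Plk3 by at least 2-fold, against 14.7%. The median absolute log2 fold change was 0.25 among the members and 0.32 among all tested genes, and the signed medians were 0.05 and -0.0015. The libraries of the 2 groups did not overlap for 26 of the 32, against 63.6% of all genes.

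**Figure D2:**
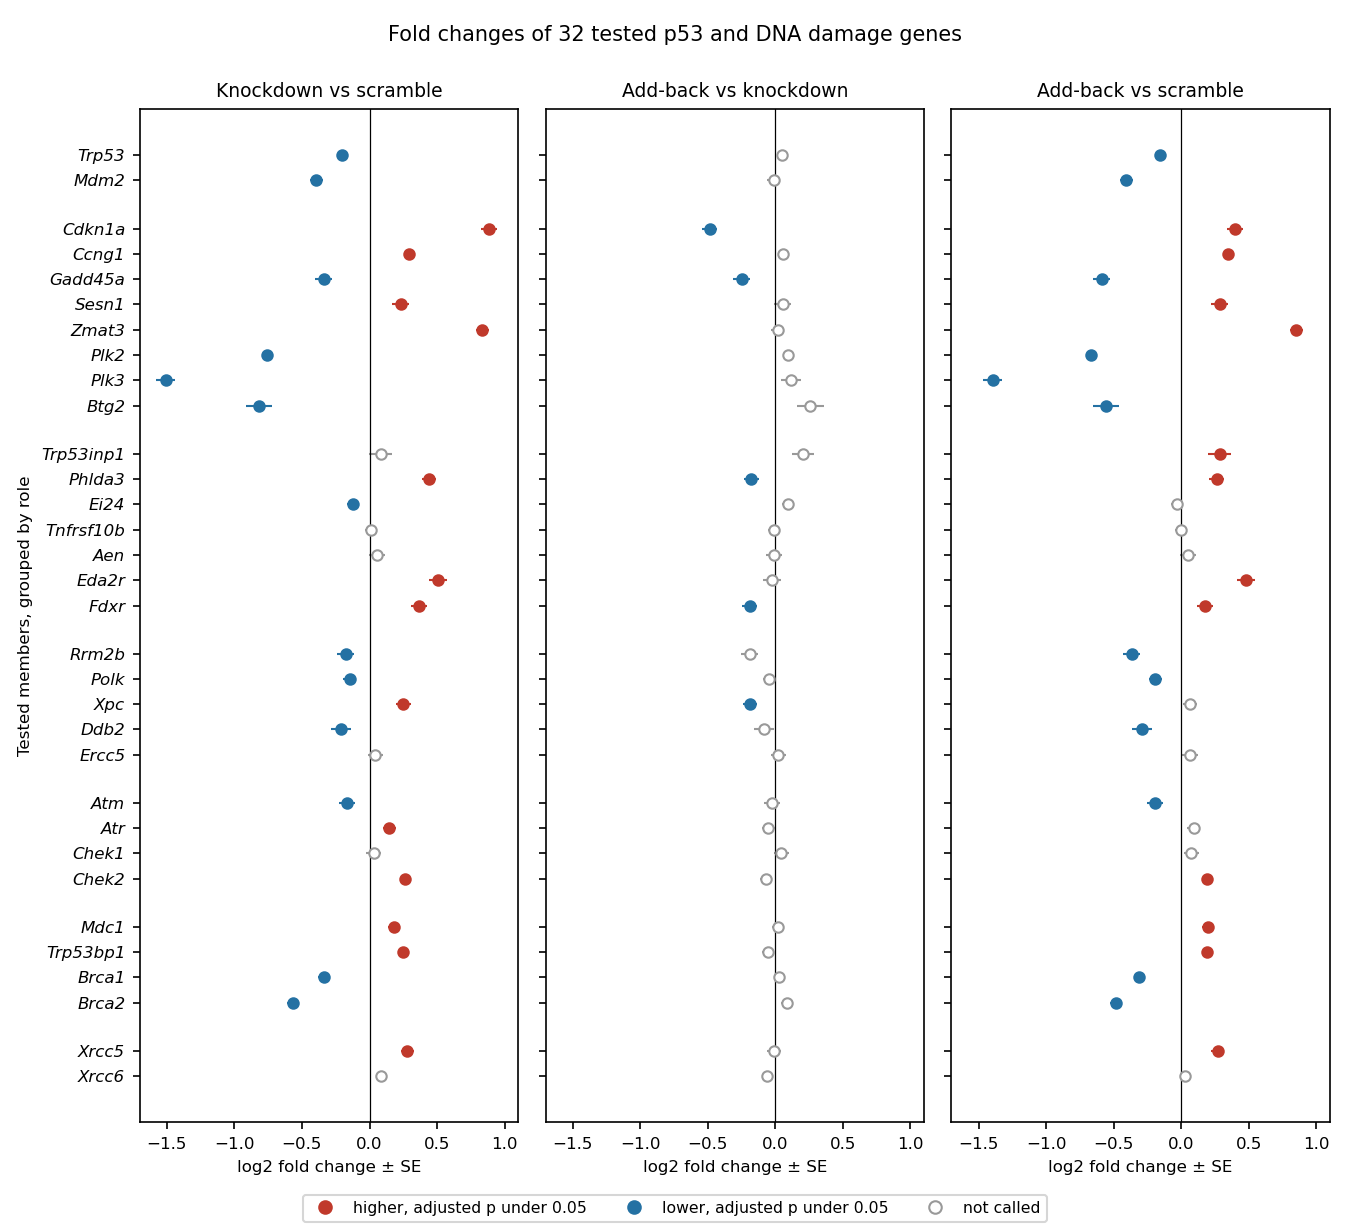
Log2 fold change and SE of the 32 tested members in the 3 comparisons, ordered by role; filled points passed an edgeR adjusted p of 0.05 (red higher, blue lower) and open points did not. The left and right panels look alike and share the scramble libraries, while 5 members are filled in the middle panel, all of them lower.

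Trp53 stood at 302, 314 and 319 CPM in the scramble libraries, at 263, 277 and 270.1 in the knockdown libraries and at 273, 277 and 286 in the add-back libraries. Both Eya3 hairpin groups lay below the scramble group without overlap, and the fall with knockdown was -0.21 ± 0.04 (SE) on the log2 scale (edgeR adjusted p = 0.000141). The median of its neighbours on chromosome 11 was -0.07 over 40 genes and -0.41 over 20. Mdm2, the ubiquitin ligase that holds p53 low, stood at 158, 157 and 169 CPM, then 119, 118 and 130.1, then 116, 122 and 126. Its groups did not overlap between scramble and knockdown either, with a log2 fold change of -0.39 ± 0.05 (edgeR adjusted p = 1.79e-06). The 40 nearest tested genes around Mdm2 on chromosome 10 had a median of -0.39 as well, so that Mdm2 moved by as much as its chromosomal surroundings.

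The 8 targets that stop the cell cycle or restrain growth all passed the test with knockdown (57.5% of all genes did), 4 higher and 4 lower. Cdkn1a, which blocks cyclin-dependent kinases, stood at 151, 145 and 139 CPM in the scramble libraries, 283.5, 264 and 254 in the knockdown libraries and 196, 204 and 172.5 in the add-back libraries. The lowest knockdown library lay well above the highest scramble library, and the 3 groups did not overlap at all. The rise with knockdown was 0.88 ± 0.06 (edgeR adjusted p = 1.76e-09). The median of its 40 neighbouring genes on chromosome 17 was 0.26, which is less than the change of Cdkn1a itself.

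Zmat3, an RNA-binding protein that acts in growth suppression, stood at 52.1, 55.0 and 57.2 CPM in scramble, 100.2, 95.9 and 97.1 in knockdown and 100.6, 103 and 92.6 in add-back libraries. Both hairpin groups were alike and lay far above the scramble group, with a rise of 0.84 ± 0.05 in the knockdown cells (edgeR adjusted p = 2.49e-10) in a neighbourhood with a median of -0.02. Ccng1, cyclin G1, which recruits a phosphatase to Mdm2, stood at 138.5, 132 and 134.5, then 163, 167 and 164, then 166, 173 and 175 CPM. It rose by 0.29 ± 0.04 (edgeR adjusted p = 3.22e-06), and no hairpin library reached down into the scramble range. Sesn1, a sestrin that restrains the growth kinase mTORC1, rose by 0.23 ± 0.06 (edgeR adjusted p = 0.00562), from a mean of 15.3 to 17.9 CPM.

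The 4 members of this role that fell are also known as rapid-response genes that growth factors and stress induce. Plk3, a polo-like kinase, stood at 24.4, 26.1 and 27.5 CPM in scramble, 9.97, 8.59 and 8.81 in knockdown and 10.0, 10.0 and 9.60 in add-back libraries. This was the largest change of any member, -1.51 ± 0.07 (edgeR adjusted p = 2.65e-11), next to neighbouring genes on chromosome 4 with a median of -0.05. Plk2 stood at 953, 961 and 1002 CPM, then 577, 563 and 584, then 611, 645 and 584. Its fall was -0.76 ± 0.04 (edgeR adjusted p = 1.12e-10), beside a median of -0.31 in its neighbourhood on chromosome 13.

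Btg2, an antiproliferative partner of the mRNA deadenylase complex, was a low gene at 7.44, 7.03 and 7.20 CPM in scramble, 3.92, 4.26 and 4.11 in knockdown and 4.35, 5.30 and 5.07 in add-back libraries. It fell by 0.82 ± 0.10 on the log2 scale with knockdown (edgeR adjusted p = 1.54e-06), with the groups apart. Gadd45a, a stress sensor that inhibits Cdk1 and binds PCNA, stood at 37.6, 42.4 and 44.5, then 32.01, 31.4 and 35.1, then 26.6, 28.2 and 28.1 CPM. The 3 groups formed 3 separate steps downwards, and the first of them was -0.34 ± 0.06 (edgeR adjusted p = 0.000192). An opposite-strand gene, E230016M11Rik, shares 19.1% of the Gadd45a exon bases, and reads of the pair may not be told apart since the strand setting is not stated; it did not pass the test (log2 fold change -0.14, edgeR adjusted p = 0.586).

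**Figure D3:**
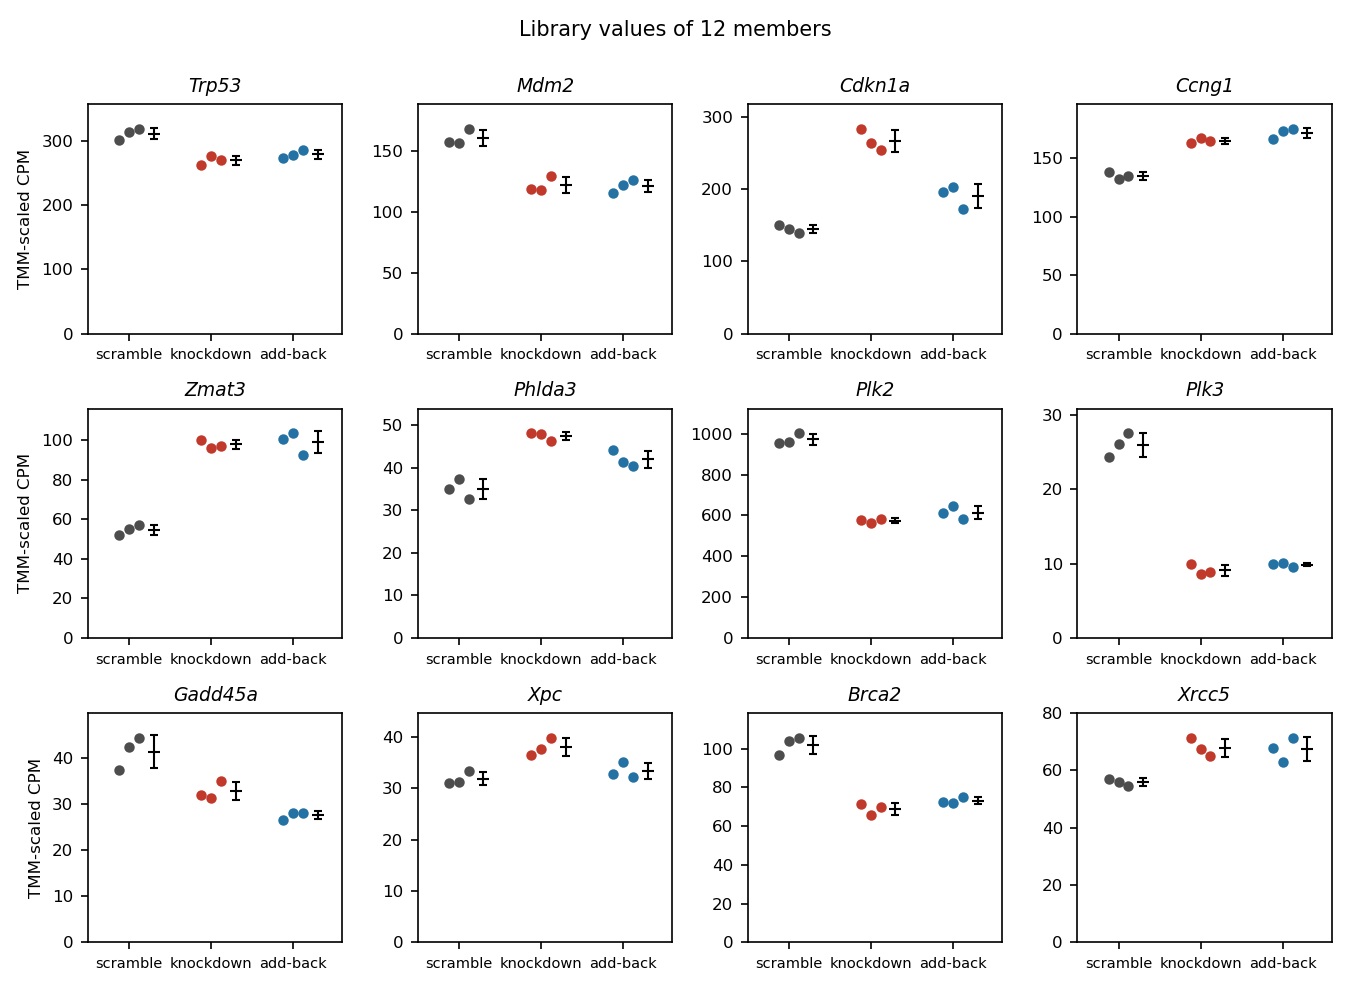
TMM-scaled CPM of 12 members in each library (points, replicates 1 to 3 from left to right), with the mean and SD of each group as a bar; every axis starts at 0. Cdkn1a and Phlda3 step up with knockdown and part of the way down with IKK2-SE, Zmat3, Ccng1 and Xrcc5 stay up, Gadd45a steps down in both, and Plk2, Plk3 and Brca2 stay down.

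Among the 7 tested targets linked to cell death and survival, 3 rose (27.7% of all genes), 1 fell (29.9%) and 3 did not pass. Eda2r, a receptor for ectodysplasin encoded on the X chromosome, stood at 10.0, 9.50 and 10.0 CPM in scramble, 13.5, 14.3 and 14.2 in knockdown and 14.4, 13.5 and 13.4 in add-back libraries, a rise of 0.51 ± 0.06 (edgeR adjusted p = 4.59e-06). Phlda3, which blocks activation of the survival kinase Akt, stood at 35.0, 37.3 and 32.6, then 48.1, 47.9 and 46.4, then 44.3, 41.3 and 40.4 CPM. It rose by 0.44 ± 0.05 with knockdown (edgeR adjusted p = 2.51e-06), and its 3 groups did not overlap.

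Fdxr, the mitochondrial ferredoxin reductase, stood at 47.2, 47.0 and 41.1 CPM, then 62.1, 56.2 and 55.9, then 52.1, 51.7 and 48.8. It rose by 0.37 ± 0.06 (edgeR adjusted p = 4.39e-05). Ei24, an endoplasmic reticulum protein, fell slightly, by 0.12 ± 0.04 on the log2 scale (edgeR adjusted p = 0.0192). The death receptor gene Tnfrsf10b, at 41.1 ± 0.333 and 41.4 ± 0.447 CPM, the nuclease gene Aen, at 56.2 ± 4.12 and 58.4 ± 3.52, and Trp53inp1, at 9.91 ± 0.668 and 10.5 ± 1.05, did not pass, with log2 differences of 0.01, 0.06 and 0.08 and overlapping libraries.

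Of 5 targets for nucleotide supply and repair, 1 rose (27.7% of all genes) and 3 fell (29.9%). Xpc, which recognises distorted DNA at the start of nucleotide excision repair, stood at 31.1, 31.2 and 33.4 CPM in scramble, 36.5, 37.6 and 39.9 in knockdown and 32.8, 35.0 and 32.2 in add-back libraries, a rise of 0.25 ± 0.05 (edgeR adjusted p = 0.000607). Ddb2, its partner in finding ultraviolet lesions, went the other way, with 12.5, 11.0 and 10.8, then 9.64, 10.1 and 9.93, then 9.58, 8.98 and 9.51 CPM. The Ddb2 fall was -0.21 ± 0.07 (edgeR adjusted p = 0.0243), and 23.83% of its exon bases overlap the opposite-strand gene Acp2, which rose by 0.30 ± 0.05 (edgeR adjusted p = 9.57e-05).

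Rrm2b, the p53-inducible subunit of ribonucleotide reductase, stood at 23.8, 23.5 and 26.5 CPM, then 22.3, 21.3 and 21.7, then 19.5, 20.01 and 17.7, and fell by 0.18 ± 0.06 on the log2 scale (edgeR adjusted p = 0.023). Polk, a translesion polymerase, fell by 0.15 ± 0.05 (edgeR adjusted p = 0.014), which was less than the -0.33 of its neighbours on chromosome 13. Ercc5, an excision repair endonuclease, did not pass, at 33.3 ± 1.48 against 34.3 ± 2.01 CPM.

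The checkpoint kinases moved little. Chek2, which relays the signal of Atm, stood at 39.0, 37.3 and 39.1 CPM in scramble, 46.3, 47.3 and 45.2 in knockdown and 45.0, 43.4 and 43.7 in add-back libraries, a rise of 0.27 ± 0.04 (edgeR adjusted p = 5.24e-05). Atr rose by 0.14 ± 0.05 (edgeR adjusted p = 0.0169), beside a median of 0.15 among its neighbours. Atm fell by 0.17 ± 0.06 on the log2 scale (edgeR adjusted p = 0.0269) with overlapping libraries, since knockdown library 1, at 67.2 CPM, lay above the lowest scramble library, at 65.7. Chek1, the kinase below Atr, did not pass, at 36.4 ± 2.66 against 37.2 ± 1.24 CPM.

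The genes for proteins that assemble at double-strand breaks went in opposite pairs. Trp53bp1, which protects broken ends and favours end joining, stood at 57.9, 60.4 and 58.1 CPM in scramble, 69.5, 68.3 and 72.1 in knockdown and 66.9, 70.0 and 65.0 in add-back libraries, a rise of 0.25 ± 0.04 (edgeR adjusted p = 7.62e-05). The opposite-strand gene Tubgcp4 shares 15.04% of the Trp53bp1 exon bases. Mdc1, the adaptor that reads phosphorylated H2AX, rose by 0.18 ± 0.04 (edgeR adjusted p = 0.00157), from 113.6 ± 4.50 to 128.6 ± 3.66 CPM. Brca1 and Brca2, which serve homologous recombination, both fell.

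Brca2, a mediator of recombination at broken ends, stood at 96.9, 104 and 106 CPM, then 71.6, 65.6 and 69.8, then 72.6, 72.1 and 75.1. Its fall of -0.57 ± 0.04 (edgeR adjusted p = 1.38e-08) came in a neighbourhood with a median of 0.01 over 40 genes and 0.26 over 20. Brca1, a ubiquitin ligase that starts end resection, stood at 64.0, 68.0 and 69.9, then 53.5, 52.6 and 53.5, then 53.8, 55.2 and 53.9 CPM, and fell by 0.34 ± 0.04 on the log2 scale (edgeR adjusted p = 2.75e-06). The hairpin libraries of both genes lay entirely below the scramble libraries. Of the Ku proteins that hold broken ends for joining, Xrcc5 (Ku80), at 57.2, 56.1 and 54.5, then 71.3, 67.6 and 64.9, then 67.9, 63.01 and 71.4 CPM, rose by 0.28 ± 0.05 (edgeR adjusted p = 0.000141). Xrcc6 (Ku70) stood at 69.6 ± 1.17 and 73.8 ± 1.87 CPM and did not pass (0.09 ± 0.04, edgeR adjusted p = 0.0615).

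Of the 26 calls with knockdown, 20 held in all 19 alternative analyses and none changed direction. Without single libraries, Ei24 lost its call without scramble 1, knockdown 1 or knockdown 3 (adjusted p = 0.0842, 0.088 and 0.0614), Rrm2b without scramble 3, knockdown 2 or knockdown 3 (0.139, 0.0806 and 0.0572), Polk without scramble 1 or knockdown 3 (0.0763 and 0.089), Ddb2 without scramble 1, knockdown 1 or knockdown 3 (0.153, 0.0812 and 0.0559), Atm without scramble 2, scramble 3, knockdown 2 or knockdown 3 (0.109, 0.0672, 0.123 and 0.147), and Atr without scramble 3 or knockdown 1 (0.0685 and 0.0981), all by edgeR. Ei24 also lost it with no filter on low counts (0.0684), and Atr with library totals (0.0988) or upper quartile factors (0.0505) in place of TMM.

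Neighbouring genes had shifted together in several regions, so each member was also read against the 40 nearest tested genes. Of the 26 called members, 23 kept their direction after the neighbours' median was subtracted, and Mdm2, Polk and Atr did not. With the 20 nearest genes 22 kept it, and Trp53 (-0.21 beside a median of -0.41), Mdc1 (0.18 beside 0.27), Mdm2 and Polk did not, while Atr (0.14 beside 0.01) did. For Trp53, Mdc1 and Atr the reading against the surroundings therefore turned on the window. The neighbours moved by at least 0.2 on the log2 scale around 4 called members, Plk2, Cdkn1a, Mdm2 and Polk. For Plk3, Btg2 and Zmat3, the median of the 40 neighbours was between -0.05 and -0.02, and that of 20 neighbours was -0.12, 0.02 and -0.02. For Brca2 it was 0.01 with 40 neighbours and 0.26 with 20, and for Plk2 -0.31 and -0.17.

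**Figure D4:**
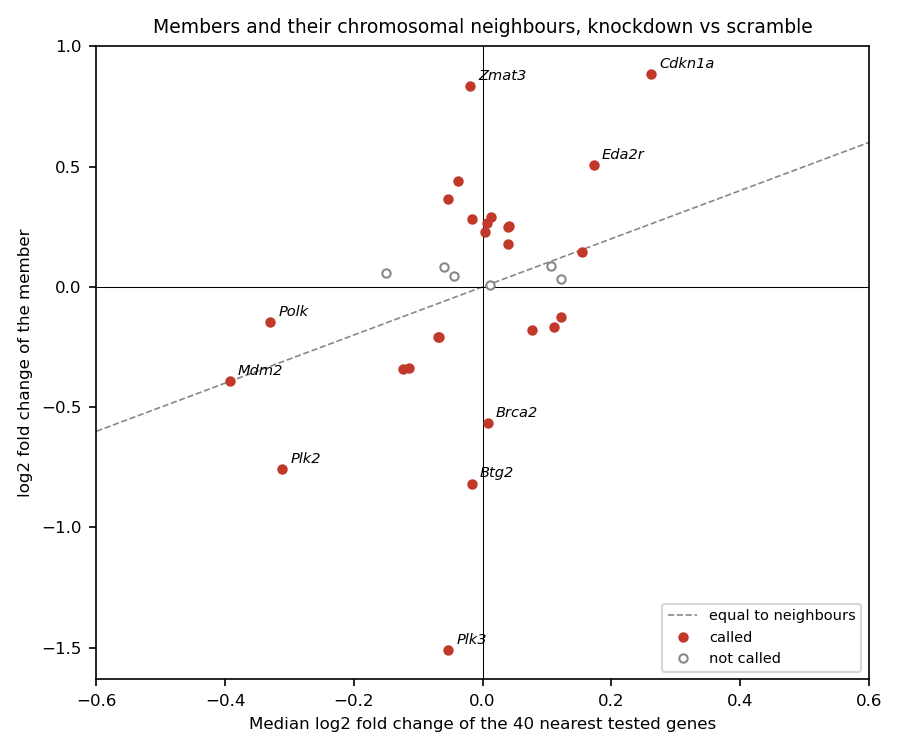
Log2 fold change of each tested member between knockdown and scramble against the median of its 40 nearest tested genes on the chromosome; the dashed line marks equal values. Mdm2 lies on the line, while Plk3, Btg2, Brca2 and Zmat3 lie far from it near a neighbour median of 0, which for Brca2 was 0.26 with 20 genes.

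Further genes of the same pathways, listed by name, were read in the same fit. Of 22 other tested p53 targets and regulators, 9 rose and 6 fell with knockdown (27.7% and 29.9% of all genes), again in both directions. Their median log2 fold change was 0.11. Psrc1, a spindle-associated target, rose by 1.40 ± 0.06, Ephx1, an epoxide hydrolase, by 1.52 ± 0.08 and the receptor Notch1 by 3.49 ± 0.18 from a low level (0.587 to 6.69 CPM), while Dram1, an autophagy regulator, fell by 4.18 ± 0.28 on the log2 scale from 2.98 to 0.164 CPM. The death genes Bbc3 (0.65 ± 0.06) and Bax (0.36 ± 0.07) rose as well, while the death genes Apaf1 (-0.54 ± 0.06) and Pidd1 (-0.48 ± 0.06) fell. Apaf1 moved by as much as its 40 nearest tested genes (median -0.53). The medians around Bbc3, Bax and Pidd1 were -0.06, 0.04 and 0.03. Ppm1d, a phosphatase that shuts off p53 signalling, fell by 0.38 ± 0.06. Bbc3, Bax, Apaf1, Pidd1 and Ppm1d were chosen after their values were seen.

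The repair and checkpoint lists had more falls than rises, where 29.9% of all tested genes were called lower and 27.7% higher. Of 13 ATR checkpoint genes, 10 fell and 0 rose (median -0.19), among them the Atr activator Topbp1 (-0.34 ± 0.04), the clamp gene Hus1 (-0.38 ± 0.05), the clamp loader gene Rad17 (-0.36 ± 0.05) and the single-strand binding gene Rpa1 (-0.26 ± 0.04). Of 16 break signalling and recombination genes, 9 fell and 3 rose (median -0.18): H2ax, the histone variant phosphorylated at breaks, fell by 0.43 ± 0.04 on the log2 scale, as did the ubiquitin ligase Rnf168 (-0.37 ± 0.05) and the resection nuclease Exo1 (-0.38 ± 0.05), whereas Mre11a, another resection nuclease, rose by 0.37 ± 0.04. Of 9 further end joining genes, 6 fell, including the ligase cofactor Xrcc4 (-0.57 ± 0.07) and the DNA-dependent kinase Prkdc (-0.34 ± 0.07), and 1 rose, Paxx (0.69 ± 0.09). Of 12 Fanconi genes for cross-link repair, 6 fell and 1 rose, with Fanca at -0.87 ± 0.07, Fancm at -0.70 ± 0.06 and Fancl at 0.64 ± 0.06.

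Excision and mismatch repair genes were balanced, with 5 higher and 5 lower of 17 (median -0.02). The mismatch repair gene Msh6 (0.56 ± 0.05) rose, while Pms2 (-0.23 ± 0.04) and the oxidised-base glycosylase Ogg1 (-0.59 ± 0.06) fell. The 40 nearest tested genes around Msh6 had a median of 0.50, close to its own change. Of 22 genes of S phase and mitosis, read beside the repair genes, 15 fell and 4 rose (median -0.15), with Mcm5 at -0.38 ± 0.04, Ccne1 at -0.82 ± 0.08 and Bub1 at 0.47 ± 0.05. Their part in the repair results was not tested, and in bulk RNA a smaller share of cells in a state and less RNA per cell cannot be told apart. Of 9 genes that track RNA quality, 1 fell (Malat1, -0.50 ± 0.13), and the 7 mitochondrial genes did not pass. Of these, mt-Nd1, mt-Nd2, mt-Co1 and mt-Cytb, were lowest in replicate 1 of both hairpin groups; mt-Nd1 stood at 1542, 2116 and 2368 CPM in the knockdown and 1668, 2428 and 2255 in the add-back libraries.

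**Figure D5:**
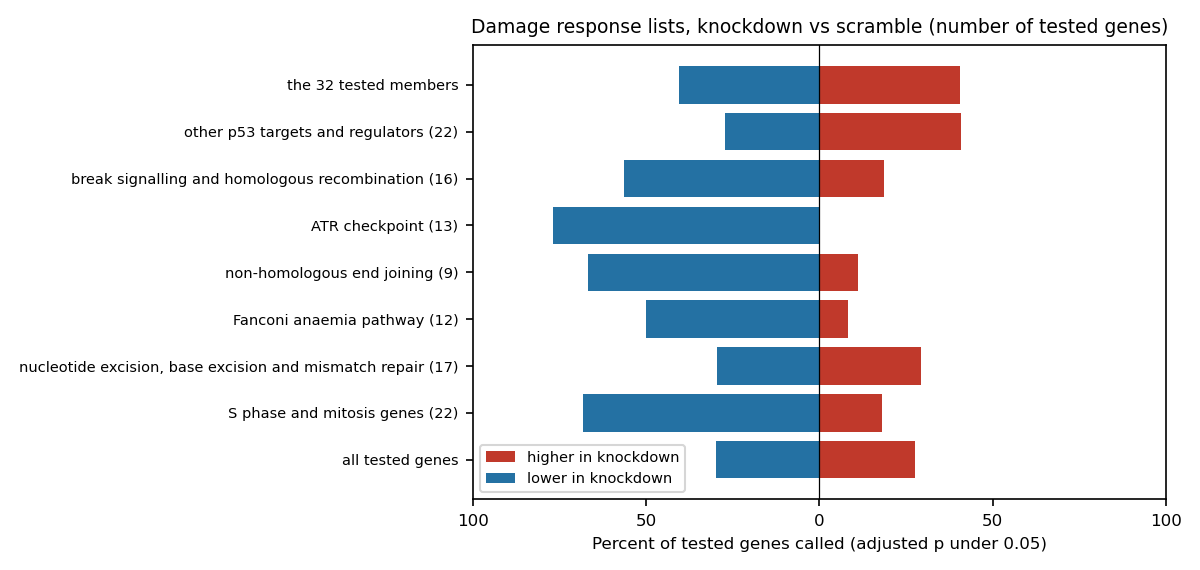
Share of tested genes called higher (red, to the right) and lower (blue, to the left) with knockdown in each list, in percent, with the number of tested genes in brackets and all tested genes at the bottom. The members are balanced at 13 each way, and the ATR checkpoint, end joining and S phase lists lie mostly to the left.

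The H2AX tyrosine phosphorylation list holds the Eya phosphatases, their substrate and genes around it, and includes Eya3, the hairpin target. All 8 passed (57.5% of all genes did), 3 higher and 5 lower. Among the rises, Eya2 and Eya4 were near the floor, with 19 and 52 counts over the scramble libraries and 106 and 102 over the knockdown libraries. Besides Eya3, the related Eya1 fell by 1.27 ± 0.06 on the log2 scale, from 62.5 ± 2.50 to 25.9 ± 1.98 CPM (edgeR adjusted p = 1.1e-11). Apbb1, an adaptor known to bind phosphorylated H2AX, gave 1424 counts over the scramble libraries, 2 over the knockdown libraries and 3 over the add-back libraries. Eya1 and Apbb1 thus differ between the lines beside the Eya3 target, and their part in the members' values was not tested.

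With IKK2-SE in the knockdown cells, a few of the p53 targets that were higher with knockdown stood lower again. Of the 32 tested members 5 were called between add-back and knockdown (15.6%, against 10.4% of all genes), 0 higher (5.61% of all genes) and 5 lower (4.82%): Cdkn1a, Gadd45a, Fdxr, Xpc and Phlda3. None reached 1.5-fold, against 2.77% of all genes. Over all genes, 53.8% of calls were higher with TMM scaling and 65.9% with library totals. The libraries of the 2 groups did not overlap for 15 of the 32, against 24.7% of all genes. The median absolute log2 fold change was 0.06 among the members and 0.10 among all tested genes. This comparison shares the knockdown libraries with the first, so a knockdown library that is high for a gene would raise one difference and lower the other.

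Cdkn1a had the largest difference. Its 3 add-back libraries lay between the scramble and knockdown ranges, with a log2 fold change of -0.49 ± 0.06 against knockdown (edgeR adjusted p = 2.76e-05) and 0.40 ± 0.06 against scramble (edgeR adjusted p = 1.94e-05). Its 40 neighbours did not move between add-back and knockdown (median -0.01), and had a median of 0.28 between add-back and scramble. Cdkn1a was also the only member called in all 19 alternatives. Phlda3 (-0.18 ± 0.05, edgeR adjusted p = 0.044), Fdxr (-0.19 ± 0.06, edgeR adjusted p = 0.0454) and Xpc (-0.19 ± 0.05, edgeR adjusted p = 0.0304) had means between those of the other 2 groups too, and of these Xpc was not called against scramble (0.06 ± 0.05, edgeR adjusted p = 0.333).

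Gadd45a went further in the direction of knockdown, with -0.25 ± 0.06 between add-back and knockdown (edgeR adjusted p = 0.0177) and -0.59 ± 0.06 between add-back and scramble (edgeR adjusted p = 6.36e-07). Rrm2b had the same order, from 24.6 ± 1.68 to 21.8 ± 0.485 and 19.1 ± 1.19 CPM, without overlap, but missed the threshold between the last 2 groups (-0.19 ± 0.06, edgeR adjusted p = 0.0747). Btg2 was the member with the largest positive difference (0.26 ± 0.10, edgeR adjusted p = 0.114), which also missed it.

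These smaller calls depended on single libraries. Gadd45a lost its call without knockdown 3 or add-back 1 (edgeR adjusted p = 0.0853 and 0.0728). Phlda3 lost it without scramble 1, knockdown 1, 2 or 3, or add-back 2 or 3 (0.0659 to 0.163), Fdxr without any one of scramble 1 or 2, knockdown 1, 2 or 3, or add-back 1, 2 or 3 (0.0504 to 0.204), and Xpc without knockdown 2 or 3, or add-back 1 or 3 (0.0764 to 0.125). With library totals in place of TMM scaling Phlda3, Fdxr and Xpc were not called either (0.0879, 0.0818 and 0.0605), nor was Fdxr without robust spread (0.0517). The count of 5 became 2 without knockdown 2, knockdown 3 or add-back 3, and 3 without scramble 1, knockdown 1, add-back 1 or add-back 2. Conversely, Trp53inp1 was called higher without knockdown 3 (0.29, edgeR adjusted p = 0.0408) and Btg2 without add-back 1 (0.34, edgeR adjusted p = 0.0486).

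For the other 27 tested members, no difference between add-back and knockdown passed the test. Zmat3 (0.02 ± 0.05), Ccng1 (0.06 ± 0.04), Eda2r (-0.02 ± 0.06), Plk3 (0.11 ± 0.07), Plk2 (0.09 ± 0.04), Brca2 (0.09 ± 0.04) and Mdm2 (-0.01 ± 0.05) had log2 differences that were small beside their knockdown changes. Trp53 differed by 0.05 ± 0.04 (edgeR adjusted p = 0.522). Of the kinases, break-site and Ku genes, 0 of 10 were called, against 10.4% of all genes.

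Of the NF-kB feedback genes, read beside the members, 4 of 6 were higher in the add-back cells and 0 lower (5.61% and 4.82% of all genes). Nfkbia led them at 1.31 ± 0.04 (edgeR adjusted p = 4.11e-13). Of the 22 other p53 targets, 2 rose and 1 fell. Fas, a death receptor, rose by 2.20 ± 0.14, from 2.61 ± 0.226 to 11.96 ± 1.33 CPM (edgeR adjusted p = 2.48e-08), and was not called with knockdown alone (2.13 ± 0.579 CPM in scramble, log2 difference 0.29 ± 0.16, edgeR adjusted p = 0.147). Pml, a nuclear body protein, rose by 0.23 ± 0.04 (edgeR adjusted p = 0.00228) and the sestrin gene Sesn2 fell by 0.21 ± 0.04 on the log2 scale (edgeR adjusted p = 0.00321). The recombination, end joining and excision lists gave 0 calls, where 10.4% of all genes were called. The ATR checkpoint list gave 1 higher (Topbp1, 0.14) and 1 lower (Rad9a, -0.19), the Fanconi list 1 higher (Fanca, 0.23), and the S phase list 1 lower (Cdc20, -0.12). In the H2AX tyrosine phosphorylation list 2 of 8 were higher, Eya1 and Baz1b, and 0 lower. Mean Eya1 levels were 62.5 CPM in scramble, 25.9 in knockdown and 37.05 in add-back libraries. Its log2 difference between add-back and knockdown was 0.52 ± 0.06 (adjusted p = 1.12e-05, edgeR). That of Baz1b was 0.14 ± 0.04 (adjusted p = 0.0345, edgeR). The part of Eya1 in the members' differences was not tested here either. Of the RNA quality genes Neat1 fell, by 0.41 ± 0.07 on the log2 scale (edgeR adjusted p = 0.00189), and its part in the members' values was not tested.

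Against scramble, the add-back cells carried nearly the same set of differences in the members as the knockdown cells did, with the scramble libraries shared. Of the 32 tested, 24 were called (75.0%, against 55.8% of all genes), 12 higher (27% of all genes) and 12 lower (28.7%), and 4 by at least 1.5-fold (23.1%). The libraries did not overlap for 25, against 61.1% of all genes. The largest were Zmat3 (0.85 ± 0.05), Eda2r (0.48 ± 0.07) and Cdkn1a (0.40 ± 0.06) upwards, and Plk3 (-1.40 ± 0.07), Plk2 (-0.66 ± 0.04), Gadd45a (-0.59 ± 0.06), Btg2 (-0.56 ± 0.09), Brca2 (-0.48 ± 0.04), Mdm2 (-0.41 ± 0.05) and Rrm2b (-0.37 ± 0.06) downwards. Side by side with the knockdown values, the change of Cdkn1a was 0.40 against 0.88, that of Zmat3 0.85 against 0.84 and that of Plk3 -1.40 against -1.51. Between add-back and scramble, the median around Cdkn1a was 0.28 with 40 neighbours and 0.36 with 20, so that most of its 0.40 was shared with its surroundings. Of the RNA quality genes, Neat1 (-0.52 ± 0.07, edgeR adjusted p = 2.86e-05) and Malat1 (-0.67 ± 0.13, edgeR adjusted p = 0.00226) were lower than in scramble.

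Trp53inp1, a stress protein that promotes p53-dependent death and autophagy, was called here and in neither of the other comparisons. It stood at 10.2, 9.14 and 10.4 CPM in scramble, 9.92, 9.84 and 11.7 in knockdown and 11.7, 11.8 and 12.7 in add-back libraries, so that add-back and scramble did not overlap (0.29 ± 0.08, edgeR adjusted p = 0.00789). Atr (0.09 ± 0.05, edgeR adjusted p = 0.117), Xpc and Ei24 (-0.03 ± 0.04, edgeR adjusted p = 0.584) were called with knockdown and not here, and of these only Xpc was called between the hairpin groups. Without knockdown 1, Atr was called here too (0.0445). Fdxr (0.17 ± 0.06, edgeR adjusted p = 0.0174) lost its call without scramble 3 (0.0931), and Atm (-0.19 ± 0.06, edgeR adjusted p = 0.0131) without scramble 2, add-back 2 or add-back 3 (0.0667, 0.0661 and 0.0638), while the other 22 held in all alternatives. After the neighbours' median was subtracted, 22 of the 24 kept their direction with 40 neighbours, and Mdm2 and Polk did not. With 20 neighbours 20 kept it, and Trp53 (-0.16 beside a median of -0.25) and Trp53bp1 (0.19 beside 0.24) did not either.

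Over the 3 groups together, 27 of the 32 tested members differed (84.4%, against 60.1% of all genes; edgeR F test). By role, Trp53 and Mdm2 fell in both hairpin groups against scramble, the 8 arrest targets parted into 4 higher and 4 lower in both, and of the 7 death targets 3 rose and 1 fell with knockdown and 4 rose and 0 fell with add-back. Tnfrsf10b, Aen, Ercc5, Chek1 and Xrcc6 passed in none of the 3 comparisons in the main fit. The table holds RNA only, and p53 protein, its phosphorylation and DNA breaks were not measured in it.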

How the data were processed

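The deposited table holds raw counts, 1 whole number per gene symbol and library, from messenger RNA libraries of 66cl4 cells. FastQC, MultiQC, STAR and the mm10 build are named in the submitters' processing notes. Not given in the sources used here are the read counter, annotation, strand setting and versions, and overlapping genes may share reads. Opposite-strand genes share exon bases of Ddb2 (23.83%), Gadd45a (19.1%), Trp53bp1 (15.04%), Rrm2b (8.04%), Xrcc6 (7.69%), Cdkn1a (7.68%) and Ei24 (6.66%). Smaller shares were found for Plk3 (3.32%), Atr (3.07%) and Brca2 (0.3%). Columns were matched to libraries by group and replicate number, with KD3 in the column names where the titles have KD2.

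Genes were kept with filterByExpr (minimum count 10, minimum total 15), which left 16766 of 52208. Counts were scaled by TMM and tested with edgeR 4.0.16 (quasi-likelihood, robust spread, group as the only term, all 9 libraries, 6 residual degrees of freedom) in R 4.3.3. P-values were adjusted by Benjamini-Hochberg over all tested genes and called at 0.05. The SE was taken as the log2 fold change over the root of F. CPM values carry the TMM scaling, and exon lengths and positions come from GENCODE on GRCm38. The procedure was run on simulated counts in which a small share of genes changed, in the knockdown group only. Success was judged on the largest simulated fold. That run cannot check the scaling or the error rate under shifts as broad as those found here. Library totals of 63601403 to 81534534 put 3 counts at 0.0368 to 0.0472 CPM.

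Every member is accounted for. Library values are given for Trp53, Mdm2, Cdkn1a, Ccng1, Cdkn2a and called members without overlap between groups, up to the 10 largest each way, and up to 4 genes of smallest p from each further list. Some genes that this rule names are not reported here. The members and lists were chosen with earlier results of these data known. Replicates within groups differed by more than sampling noise (3.62 to 18.8 chi-square units per degree of freedom). Alternatives used other scalings, filters and fits, limma 3.58.1, DESeq2 1.42.0 and the removal of each library.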

Additional observations from a re-analysis of the deposited data

How the results depend on the processing

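The counts of called members were recomputed under 19 alternatives. With knockdown against scramble the count of 26 ran from 21 to 27, leaving out single libraries giving 21 to 26. Add-back against scramble gave 23 to 25 around 24, and the test over the 3 groups 23 to 27 around 27 in 18 alternatives. Add-back against knockdown was the least stable. Its 5 calls became 2 with library totals, which also moved the share of higher calls over all genes from 53.8% to 65.9%, and 2 to 5 when a library was left out. The cause of these shifts was not tested beyond that removal leaves fewer libraries.

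Deviations of same-numbered libraries of different groups correlated at -0.0111 to 0.124, and those of differently numbered libraries at -0.0814 to 0.0464. The main fit treated the libraries as unpaired, and correlations this weak cannot decide whether the replicate numbers pair them. A replicate block gave 27, 6 and 25 calls in the 3 comparisons and 27 in the joint test, adding Xrcc6 (adjusted p = 0.0344), Rrm2b (0.0429) and Atr (0.0263) by edgeR, and raised the calls over all genes between add-back and knockdown from 1749 to 2678.

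No called member changed direction. Among uncalled members with log2 differences near 0, library totals turned the sign with knockdown of Tnfrsf10b (-0.0398), Ercc5 (-0.0039) and Chek1 (-0.0161), and with add-back against knockdown of Mdm2 (0.0151), Tnfrsf10b (0.015), Aen (0.0208), Eda2r (0.0032), Atm (0.0027) and Xrcc5 (0.0183). Upper quartile factors turned Tnfrsf10b with knockdown (-0.0213), and against scramble in the add-back cells the CPM filter (0.0014) and a fit of only those groups (0.0035) did so. With single libraries left out, signs turned for Chek1 with knockdown (-0.0167 to 0.0874) and for Tnfrsf10b in add-back against scramble (-0.0304 to 0.0231). Between add-back and knockdown they turned for Mdm2 (-0.0405 to 0.033), Zmat3 (-0.0159 to 0.0624), Tnfrsf10b (-0.0439 to 0.0103), Aen (-0.0574 to 0.0333), Ercc5 (-0.0187 to 0.0678), Atm (-0.0783 to 0.0542), Atr (-0.0849 to 0.0087), Mdc1 (-0.0011 to 0.0533) and Xrcc5 (-0.0522 to 0.0379). With 3 libraries a group and a common biological coefficient of variation of 5.26%, none of these differences passed the test. The smallest difference that could be detected was not computed.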
